A study of Mus musculus with 2 samples.

Results

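The genes described here were 32 genes of glycolysis and of the response to low oxygen, chosen by symbol from a list, among 31053 genes in the deposited table. They comprised 2 transporters, 16 glycolytic enzymes, 1 kinase at the entry of pyruvate into mitochondria, 3 genes of oxygen sensing and 10 further targets of hypoxia-inducible factor (HIF). Their raw unique molecular identifiers (UMIs, which count captured RNA molecules) were followed through cell classes of B16 tumours, a mouse melanoma transplanted into C57BL/6 mice of 8 weeks. Aldoa had 2 table entries, and the one used here held 94192 UMIs in the cells kept, against 7 in the other.

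The study profiled live CD45+ tumour cells, CD45 being a surface protein of leucocytes, in 1 library per genotype, each pooled from several mice. The WT mice were Mettl3 fl/fl Lyz2 +/+, and the KO mice were Mettl3 fl/fl Lyz2 cre/+, so both carried floxed alleles of Mettl3, an RNA methyltransferase that makes N6-methyladenosine. The Cre stood in 1 Lyz2 allele of the KO mice and is known to act in macrophages, monocytes and granulocytes. Lymphocytes do not use this promoter, and the injected tumour cells carry no Cre. With 1 library per genotype there was no spread between mice and no test between genotypes was possible. Levels are UMIs per 1000000 UMIs of a class (CPM), log2 ratios are KO over WT, and all intervals are 95% intervals that cover counting error only.

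Glycolysis splits glucose into pyruvate in the cytosol, and lactate dehydrogenase then turns pyruvate into lactate, which leaves the cell through carriers such as Slc16a3. When oxygen is scarce, the prolyl hydroxylases encoded by Egln1 and Egln3 no longer mark HIF-1α (Hif1a) for destruction, and HIF binds the letters ACGTG or GCGTG near its target genes. Those targets include the glucose carrier Slc2a1, most glycolytic enzymes, the mitophagy receptor Bnip3, the growth factor Vegfa and Egln3 itself. Solid tumours hold poorly perfused regions, and monocytes, macrophages and neutrophils that enter them are known to use these genes.

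The labels were checked first. Mettl3 reached 10.1 CPM in all phagocytes labelled WT (236 UMIs) and 10.9 CPM in those labelled KO (313 UMIs), which gives a log2 ratio of 0.10 (-0.15 to 0.35). The reads are tags of the 3′ end, and which exons were floxed is not given in the sources used here. A deletion upstream of the tag need not show in these counts, and this was not tested. The paper reported less Mettl3 mRNA, by PCR, in KO macrophages grown from bone marrow. Lyz2, which encodes lysozyme and whose allele carries the Cre, was at 6840 CPM in phagocytes labelled WT and 3092 CPM in those labelled KO. Because Mettl3 itself did not separate the libraries, they are called by their labels throughout.

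After filters, 5405 cells labelled WT and 7625 labelled KO remained, with medians of 4130 and 3575 UMIs per cell. Per-cell gates on marker genes, none of them among the 32, put 4629 and 6763 cells into 20 classes and left 14.4% and 11.3% unassigned. Only 13 barcode sequences occurred in both libraries. T cells held 1176 CPM (WT) and 991 CPM (KO) of the 13 phagocyte markers. These markers include Ly6c2 and Ccr2, the sum was not divided by gene, and its source was not tested. Melanoma cells were 2.52% and 2.98% of the cells kept although the sort was for CD45+ cells, and in these melanoma cells 6 pigment genes summed to 14817 and 16323 CPM, against 77.8 and 80.7 CPM in C1q-high macrophages, which express complement C1q.

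Promoter windows of 31 of the 32 genes were found in RefSeq (GRCm38.p6), Ero1l under its newer symbol Ero1a. For Ndrg1 no window was matched in the table used. Each window holds 300 bases, 250 before and 50 after the transcription start. Windows of the same gene can overlap, so 1 site can be counted in more than 1 window. The letters ACGTG or GCGTG, read on both strands, occurred in 37 of the 45 windows of these genes (82.2%) and in 43.8% of all 32851 windows, and the palindrome CACGTG counts on both strands. Sites in the genes on which the results below turn are shown 5′ to 3′ on the gene's strand, with every match on either strand in capitals. A match describes the letters only.
Bnip3, chr7:138909597-138909625, minus strand, read on both strands: cgCACGCgccgCACGTGccaCACGCtccc
Ero1l, chr14:45318619-45318647, minus strand, read on the opposite strand: cgcgcgccgctgCACGTccgcaggggagg
Egln3, chr12:54204087-54204115, minus strand: tgtgcatctcagACGTGagatccaggttt
Hilpda, chr6:29272571-29272599, plus strand: gatggccagcggACGTGccccagggcgag
Slc2a1, chr4:119108697-119108725, plus strand: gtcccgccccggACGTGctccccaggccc
Slc16a3, chr11:120949028-120949056, plus strand: caggcagcggtgACGTGcgcgggggacgt
Pgk1, chrX:106186938-106186966, plus strand: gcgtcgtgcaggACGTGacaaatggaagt
Ldha, chr7:46845647-46845675, plus strand, read on both strands: ggtgtcgcagcaCACGTGgagccactctt
Pfkl, chr10:78009890-78009918, minus strand: atttgtagactgGCGTGcgctccgccttt
The middle base of the ACGTG match nearest the centre of the stretch lay at -34 from the start in Slc2a1, -105 in Bnip3, -148 in Pgk1 and -227 in Egln3. Ldha held 7 matches in 1 of its windows, the most of any member, and the windows of Gpi1 and Tpi1 held none.

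The 32 genes differed widely between cell classes, and among the classes ranked here a pair held most of the highest levels. Phagocytes that passed none of the subset gates were left out of this ranking. In the library labelled WT, Retnlg-negative granulocytes were highest for 17 genes and melanoma cells for 10. In the library labelled KO the numbers were 15 and 13. How many of all genes were highest in these classes was not counted, so the numbers describe the members only. The interval of the highest class overlapped that of the next for 6 of the 17 and 2 of the 10 genes labelled WT and for 7 of the 15 and 6 of the 13 labelled KO, so counting error does not separate the order there. B cells were lowest for many of the enzymes, with Pgk1 (phosphoglycerate kinase) at 68.2 and 114 CPM against 1426 and 1838 CPM in melanoma cells. Pfkm, the muscle form of phosphofructokinase, was near 0 in most classes and reached at most 18.5 CPM labelled WT, in CD4 T cells, and 23.2 CPM labelled KO, in melanoma cells.

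**Figure D1:**
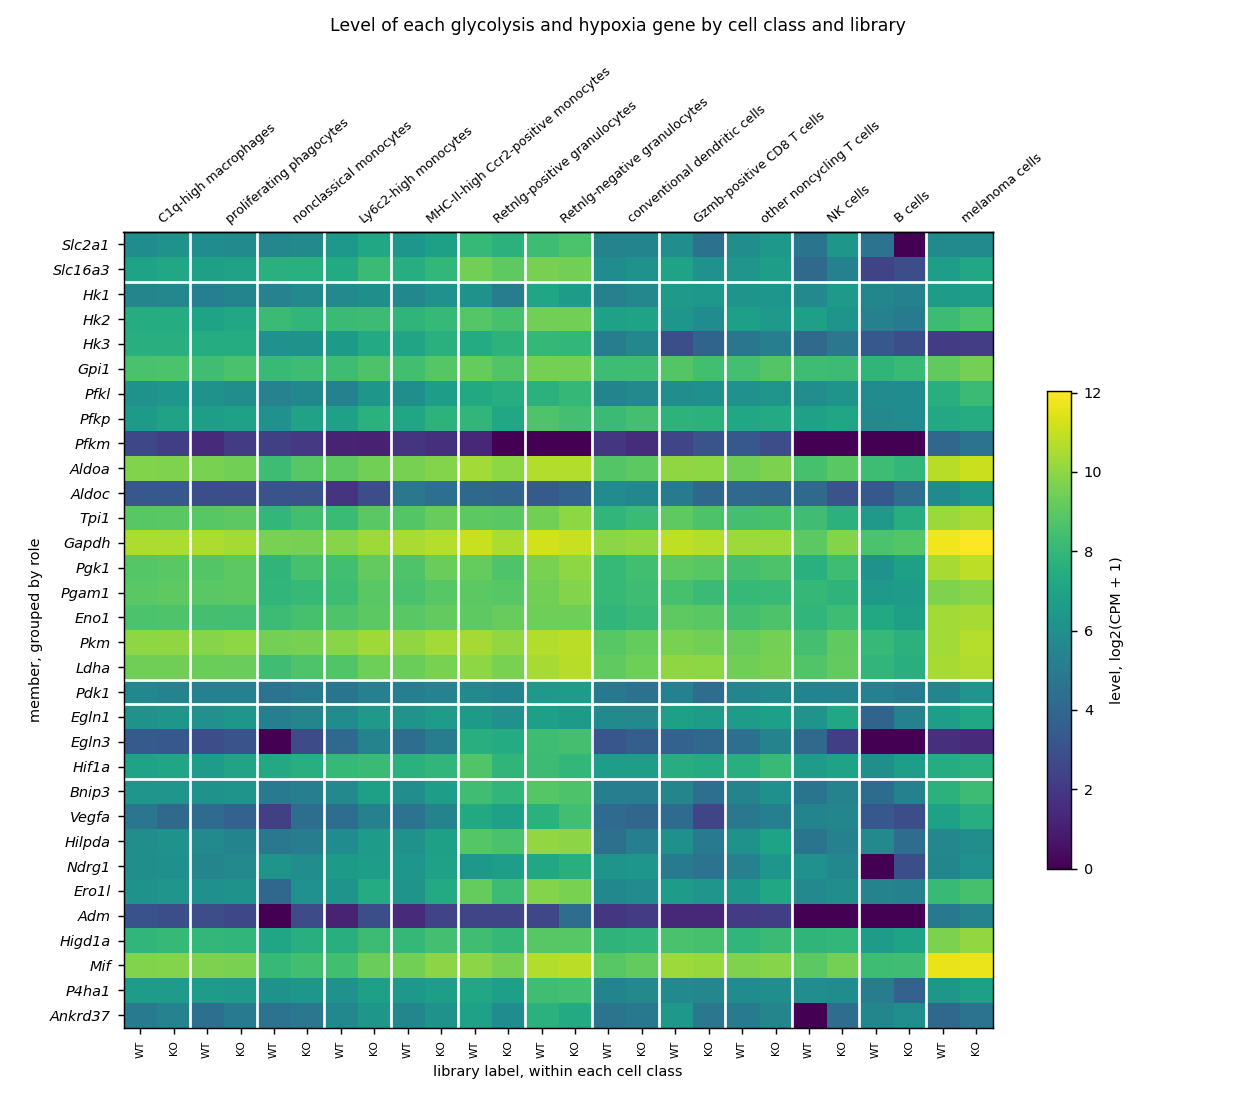
Level of each of the 32 genes (rows, grouped by role) in 13 cell classes (columns, the library labelled WT left and KO right), as log2(CPM + 1) from 1 library each. Retnlg-negative granulocytes and melanoma cells are bright across the enzymes, and B cells and Pfkm are dark.

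The HIF targets had their own order among these classes. Hilpda, which coats lipid droplets, was highest in Retnlg-negative granulocytes, at 1070 CPM labelled WT and 990.2 CPM labelled KO, and Retnlg-positive granulocytes came next at 464.7 and 383 CPM, with intervals apart in both. Egln3 was at 314 and 353 CPM in Retnlg-negative granulocytes and at 192.9 and 170.3 CPM in Retnlg-positive ones, again with intervals apart. Ero1l, which makes disulfide bonds in the endoplasmic reticulum, was at 894 and 776 CPM in Retnlg-negative granulocytes. For Vegfa the library labelled WT did not separate Retnlg-negative granulocytes (203 CPM) from Retnlg-positive ones (158 CPM), whose intervals overlapped, while in the library labelled KO they stood at 341 CPM, above melanoma cells at 179.6 CPM with intervals apart. Mif, a cytokine, was highest in melanoma cells at 3209 and 3326 CPM. Ndrg1, a stress-response gene, was highest in mature dendritic cells at 192.2 and 286.8 CPM. Retnlg-negative granulocytes followed at 142.5 and 189.2 CPM, with intervals that overlapped in both libraries.

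Between the libraries, the largest median difference of the members among the 13 classes compared was in Ly6c2-high monocytes. In these cells, which enter tissue from blood, 22 of 26 members tested, meaning those at 50 CPM or more in either library, were at least 25% higher in the library labelled KO, as were 16.6% of all genes. None was lower by the same fold (20% or more), as 9.39% of all genes were. The median member log2 ratio was 0.69, and that of all genes was 0.03. The class held 380 cells labelled WT and 1011 labelled KO, with medians of 3932 and 3142 UMIs. The other 6 members, Pfkm, Aldoc, Pdk1, Egln3, Vegfa and Adm, were under 50 CPM in both libraries.

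**Figure D2:**
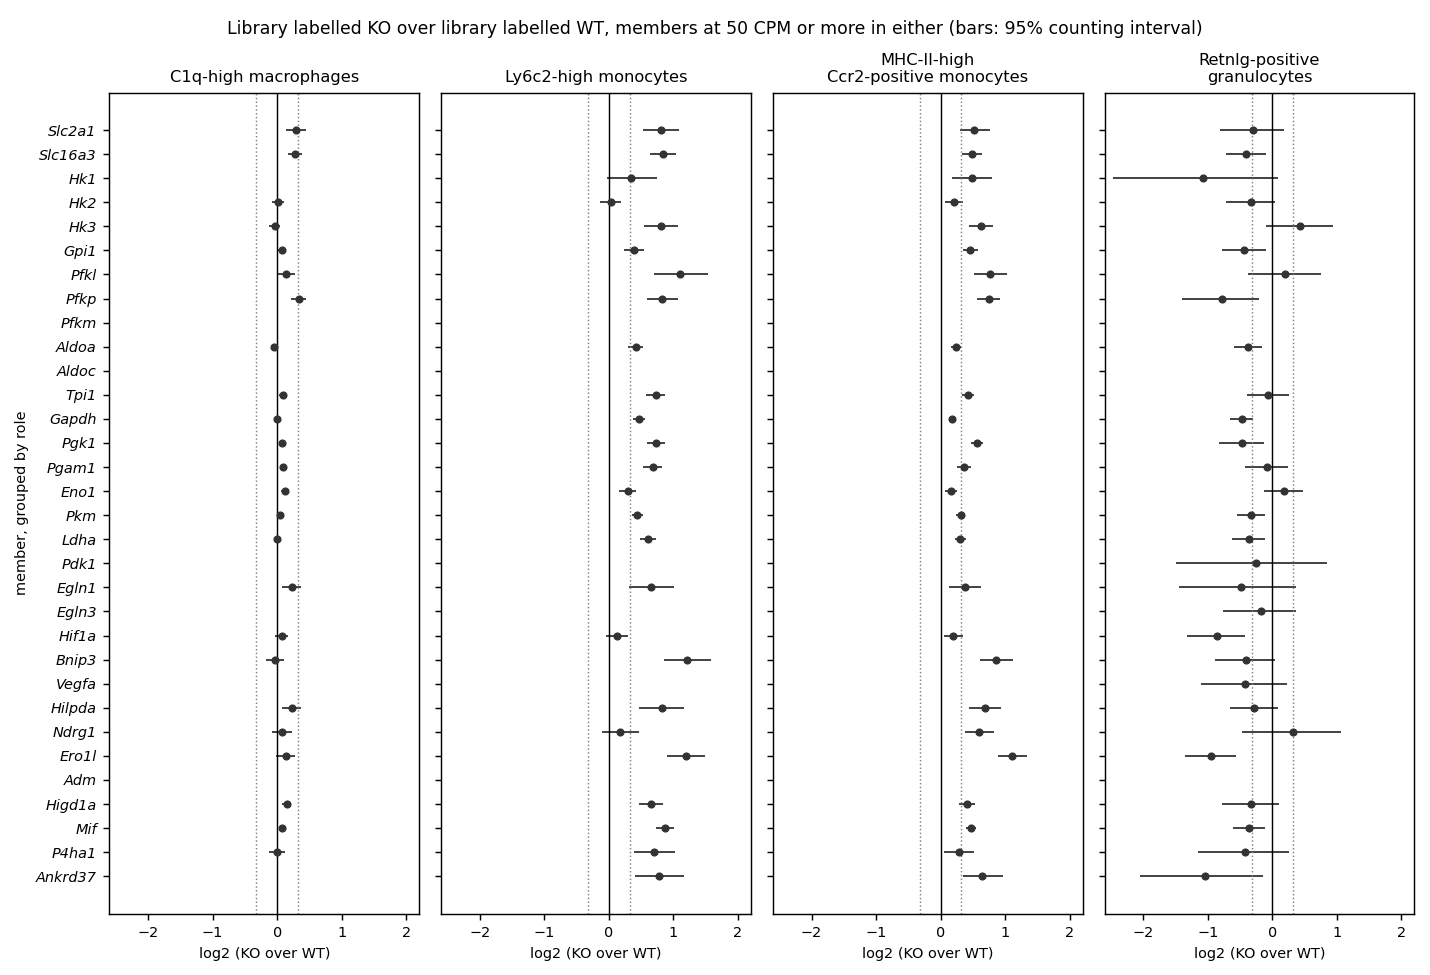
Log2 ratio of the library labelled KO over that labelled WT (x axis) for each member at 50 CPM or more in either (rows) in 4 cell classes, with 95% counting intervals as bars and dotted lines at the fold of 25%. In Ly6c2-high monocytes 22 of 26 points lie right of the line, in C1q-high macrophages 1 of 24, and in Retnlg-positive granulocytes 19 of 29 lie left of it.

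Of the HIF targets in Ly6c2-high monocytes, Bnip3 was at 49.2 CPM (77 UMIs) labelled WT and 114 CPM (390 UMIs) labelled KO, a log2 ratio of 1.21 (0.85 to 1.58). Ero1l was at 73.4 and 168 CPM, a ratio of 1.19 (0.90 to 1.49). Mif was at 337 and 617 CPM, a ratio of 0.87 (0.73 to 1.01). Hilpda, Ankrd37 and P4ha1, a collagen-modifying enzyme, differed by 0.82, 0.77 and 0.70, and Higd1a, a mitochondrial protein, by 0.65. Ndrg1 stood apart from them at 93.9 and 106 CPM, with an interval of -0.10 to 0.46. Below the filter, Egln3 was at 16.6 and 40.2 CPM, Vegfa at 19.2 and 37.9 CPM, and the vasodilator peptide Adm at 1.28 and 6.42 CPM from 2 and 22 UMIs.

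Of 14 enzymes tested in these monocytes, 12 were past that fold, with a median log2 ratio of 0.54. Pfkl, the liver form of phosphofructokinase, had the largest, from 38.3 to 82.2 CPM with a log2 ratio of 1.10 (0.70 to 1.53), and Pfkp, the platelet form, stood at 117 and 207 CPM. Tpi1 and Pgk1, of the middle of the pathway, both differed by 0.72, and Ldha, which makes lactate, was at 439 and 669 CPM. Gapdh, at 926 and 1278 CPM, differed by 0.47 (0.38 to 0.55). Hk2, the inducible hexokinase, did not separate the libraries, at 294 and 299 CPM with an interval of -0.13 to 0.19, and Eno1 differed by 0.29, short of the fold. The glucose carrier Slc2a1 was at 84.3 and 147 CPM and the lactate carrier Slc16a3 at 164 and 293 CPM. Hif1a itself was at 270.1 and 294 CPM, with an interval of -0.04 to 0.29.

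The per-cell values of Ly6c2-high monocytes differed more at the top than at the bottom. The sum of the 16 enzymes had a lower quartile of 29.5 UMIs per 10000 labelled WT and 34.4 labelled KO, a median of 40.7 and 51.1, and an upper quartile of 56.8 and 95.9. Thinned to 1000 UMIs, which left out 14 and 35 cells, the lower quartile was 3 in both, the median 4 and 5, and the upper quartile 6 and 9. Markers of other cell types were low in both libraries. The 6 pigment genes of melanoma cells summed to 54.9 and 53.7 CPM, the 7 granulocyte markers to 224 and 175 CPM, and the 6 T cell markers to 6.39 and 9.92 CPM. The dissociation stress list, 18 genes that tissue digestion induces, summed to 8145 and 7382 CPM, and its part in the result was not tested. The count of members higher in the library labelled KO was 20 to 27 over the alternatives run, beside 13.6% to 23.6% of all genes.

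The MHC-II-high Ccr2-positive monocytes, which express antigen-presenting molecules, had the same direction. Of 26 members tested 18 were higher in the library labelled KO, beside 11.8% of all genes, and none was lower, beside 4.68%. Their median log2 ratio was 0.46. Ero1l was at 74.8 and 161 CPM, a ratio of 1.11 (0.88 to 1.34), Bnip3 at 59.4 and 108 CPM, a ratio of 0.86 (0.60 to 1.12), and Pfkl at 63 and 107 CPM, a ratio of 0.77 (0.51 to 1.03). The abundant enzymes Aldoa, Gapdh, Eno1, Pkm and Ldha stayed short of that fold, between 0.16 and 0.31 on the log2 scale. When classes came from clusters rather than gates, 5 of 24 members were higher, beside 9.04% of all genes, and the median was 0.19, so the number depended on how these cells were delimited.

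In C1q-high macrophages of the same tumours 1 of 24 members tested, Pfkp, was at least 25% higher, as were 5.16% of all genes, and none was lower, as 2.22% were, and these counts are close to the shares of all genes. With cells thinned to 1000 UMIs 3 of 25 were higher and 2 lower, beside 13.3% and 9.56% of all genes. Bnip3 was at 77.5 CPM labelled WT and 75.7 CPM labelled KO, Ldha at 691 and 686 CPM and Gapdh at 1482 and 1485 CPM. Of the 8 members under 50 CPM there, Vegfa was at 25.3 and 17.1 CPM, a ratio of -0.56 (-0.84 to -0.29).

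In proliferating phagocytes 1 of 23 members was higher and 1 lower, beside 9.25% and 3.95% of all genes. In nonclassical monocytes, of which only 80 cells were labelled WT, 10 of 20 members were higher and 1 lower, beside 24% and 19.2% of all genes. Summed over all phagocytes, 10 of 27 members were higher, beside 10.2% of all genes, and none was lower, beside 3.92%. That sum mixes subsets whose shares differed, since Ly6c2-high monocytes made up 7.03% and 13.3% of the cells of the libraries labelled WT and KO. With equal weight for each subset 5 of 27 members were higher, beside 7.61% of all genes. The sum also holds phagocytes that passed none of the subset gates (206 and 358 cells). In those cells Bnip3, Egln3, Ankrd37, Hilpda, Ndrg1, Adm, Vegfa and Ero1l together were lower in the library labelled KO, at 2015 and 1382 CPM with a log2 ratio of -0.54 (-0.65 to -0.44), and the 16 enzymes together were at 10833 and 10706 CPM, with an interval of -0.06 to 0.02.

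The same monocytes were also set against C1q-high macrophages within each library. Labelled WT, 9 of 24 members were lower by 1.5-fold in Ly6c2-high monocytes than in C1q-high macrophages, beside 19.3% of all genes, and 3 were higher, beside 24.7%. Labelled KO, none of 26 was lower, beside 16.5%, and 9 were higher, beside 24.6%, with a median log2 ratio of 0.23. With classes from clusters 4 of 27 were higher labelled KO, beside 24.5% of all genes, and the median was 0.05. Cells of 2000 to 6000 UMIs, a range chosen after seeing the data, gave 5 higher, beside 18% of all genes, and 2 lower, beside 15.4%, with a median of 0.004. The 16 enzymes together were at 5128 CPM (5017 to 5242) in Ly6c2-high monocytes labelled WT and 7243 CPM (7153 to 7334) in those labelled KO, and at 6853 and 7021 CPM in C1q-high macrophages.

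**Figure D3:**
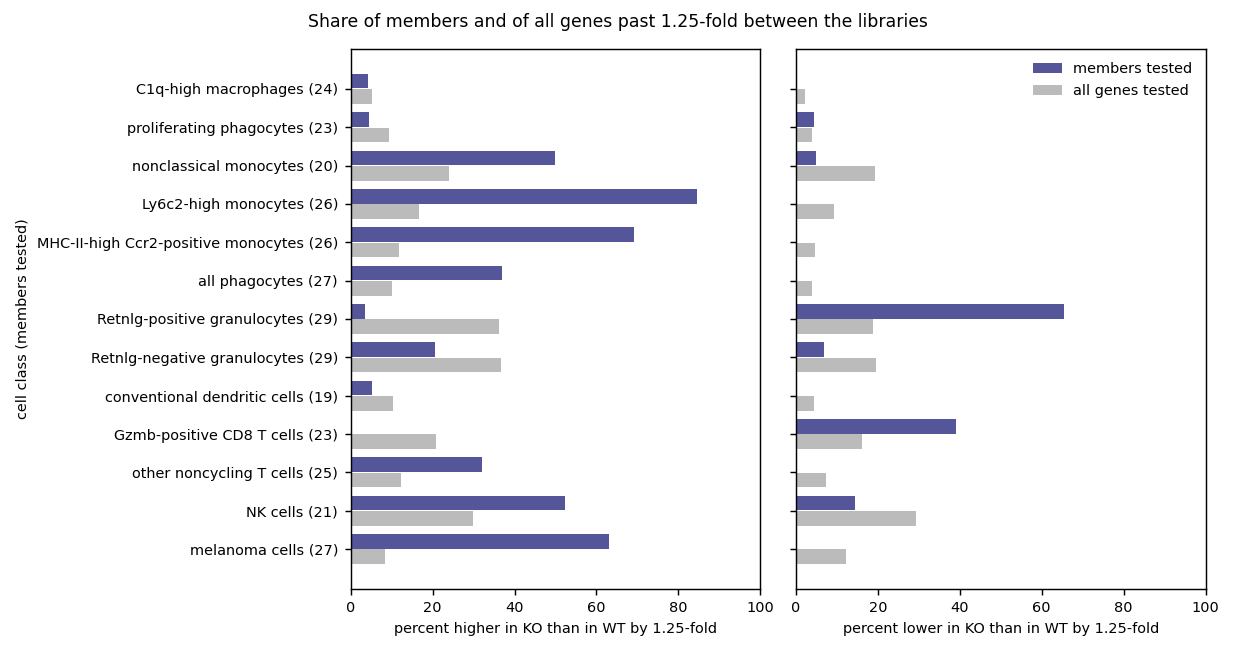
Percent of the members tested (dark bars) and of all genes tested (grey bars) that were higher (left) or lower (right) by at least that fold of 25% in the library labelled KO, by cell class, with the number of members tested in brackets. The dark bar exceeds the grey one most in Ly6c2-high monocytes on the left and in Retnlg-positive granulocytes on the right.

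In Retnlg-positive granulocytes 19 of 29 members were lower in the library labelled KO, beside 18.9% of all genes, and 1, Hk3, was higher, beside 36.1%. The median member log2 ratio was -0.37 while that of all genes was 0.14, and relative to that shift 22 members were lower and none higher, beside 25.6% and 26.3% of all genes. Ero1l was at 593 CPM (375 UMIs) labelled WT and 308 CPM (65 UMIs) labelled KO, a ratio of -0.95 (-1.35 to -0.56). Hif1a was at 430 and 237 CPM, a ratio of -0.86 (-1.33 to -0.42), and Ankrd37 at 117 and 56.8 CPM, a ratio of -1.04 (-2.06 to -0.15).

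The depth behind this was thin, with 310 cells of median 1452 UMIs labelled WT and 145 of median 1100 labelled KO. With classes from clusters 2 of 28 members were lower, beside 9.44% of all genes, and the median was -0.001, so the excess over all genes was absent when the cells were delimited that way. In Retnlg-negative granulocytes (236 and 109 cells) 6 of 29 members were higher and 2 lower, beside 36.7% and 19.6% of all genes. Clusters gave 17 higher and 1 lower, beside 40.6% and 23.2% of all genes, thinning to 1000 UMIs gave 6 and 10, beside 46.8% and 27.5%, and median ratio scaling gave 2 and 7, beside 27.5% and 27.7%, so no direction is given for this class. Within each library most members were lower in Retnlg-positive granulocytes, whose marker is one of blood neutrophils, than in Retnlg-negative ones. Hif1a labelled WT was higher in Retnlg-positive ones, at 430 against 300 CPM, a log2 ratio between the classes of 0.52 (0.21 to 0.84). Labelled WT, 12 of 29 members were lower by 1.5-fold, beside 25.8% of all genes, and labelled KO 22 were, beside 35.6%. None was higher by that fold in either, beside 8.42% and 17.4%. The count labelled WT was 2 with gate thresholds 1.5 times as high, beside 26.6% of all genes, and 25 with clusters, beside 26%.

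Lymphocytes and dendritic cells gave mixed values. In Gzmb-positive CD8 T cells, which carry the killing enzyme granzyme B (88 and 100 cells), 9 of 23 members were lower in the library labelled KO, beside 16.1% of all genes, and none was higher, beside 20.8%. Their median log2 ratio was -0.19. With classes from clusters (194 and 184 cells) 3 of 22 were lower and 1 was higher, beside 8.5% and 10.9% of all genes, and the median was 0.04, while thinning to 1000 UMIs gave 8 of 22 lower and 3 higher, beside 31.3% and 40% of all genes. The direction in these cells therefore depended on how they were delimited. In the gated cells Slc2a1 was at 58.4 and 21.6 CPM and Slc16a3 at 125 and 66.3 CPM. In the other noncycling T cells 8 of 25 members were higher, beside 12.3%, and none was lower, beside 7.22%. Within the library labelled WT 6 of 23 members were higher by 1.5-fold in the Gzmb-positive cells than in those other T cells, beside 9.57% of all genes, and none was lower, beside 17.6%. Within the library labelled KO none of 25 was higher, beside 14.8%, and 9 were lower, beside 22.7%.

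In NK cells, of which 47 were labelled WT, 11 of 21 members were higher and 3 lower, beside 29.9% and 29.3% of all genes. In conventional dendritic cells 1 of 19 was higher and none lower, beside 10.4% and 4.44%. In Gzmb-positive CD8 T cells the 13 phagocyte markers summed to 740 and 847 CPM, and their part in the T cell values was not tested.

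Melanoma cells, which come from the injected line and carry no Cre, also held more of these transcripts in the library labelled KO. Of 27 members tested 17 were higher, beside 8.44% of all genes, and none was lower, beside 12.1%, with a median log2 ratio of 0.37. Pdk1 was at 44.1 and 75.7 CPM, a ratio of 0.78 (0.56 to 0.99), Bnip3 at 209 and 309 CPM, a ratio of 0.56 (0.46 to 0.66), and Higd1a at 817 and 1079 CPM, a ratio of 0.40 (0.35 to 0.45). Gapdh, at 3549 and 4203 CPM, and Mif were short of the fold. There were 136 and 227 such cells, with medians of 45490 and 35187 UMIs, and thinning to 1000 UMIs gave 12 of 28 higher and 2 lower, beside 30.8% and 32.1% of all genes, and turned the direction of Aldoc and Vegfa. In melanoma cells 6 cell cycle markers were at 1104 and 739 CPM and the granulocyte markers at 118 and 11.5 CPM, and their part in the result was not tested.

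Against all phagocytes, melanoma cells were higher by 1.5-fold for 15 of 27 members labelled WT, beside 37.5% of all genes, and for 17 of 29 labelled KO, beside 34.9%. They were lower for 5 and 6, beside 30.5% and 33.1%. Hk3 was the most unequal, at 3.38 and 3.56 CPM in melanoma cells, and both transporters were lower there.

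Families of isozymes divided by cell class. Shares of UMIs within a family are given with exact Clopper-Pearson intervals, and they compare 3′ tags of different genes, whose capture may differ. Among hexokinases, Hk2 held 42.5% (41.1 to 44) of the UMIs in C1q-high macrophages labelled WT and Hk3 46.7% (45.3 to 48.2). In Ly6c2-high monocytes Hk2 held 67.1% (63.4 to 70.6) labelled WT and 56.7% (54.4 to 59) labelled KO, and Hk3 21.6% (18.6 to 24.8) and 31.2% (29.1 to 33.4). Melanoma cells had 0.83% and 0.71% of their hexokinase UMIs from Hk3, and T cells had 40.4% and 43.7% from Hk1, the widespread form.

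**Figure D4:**
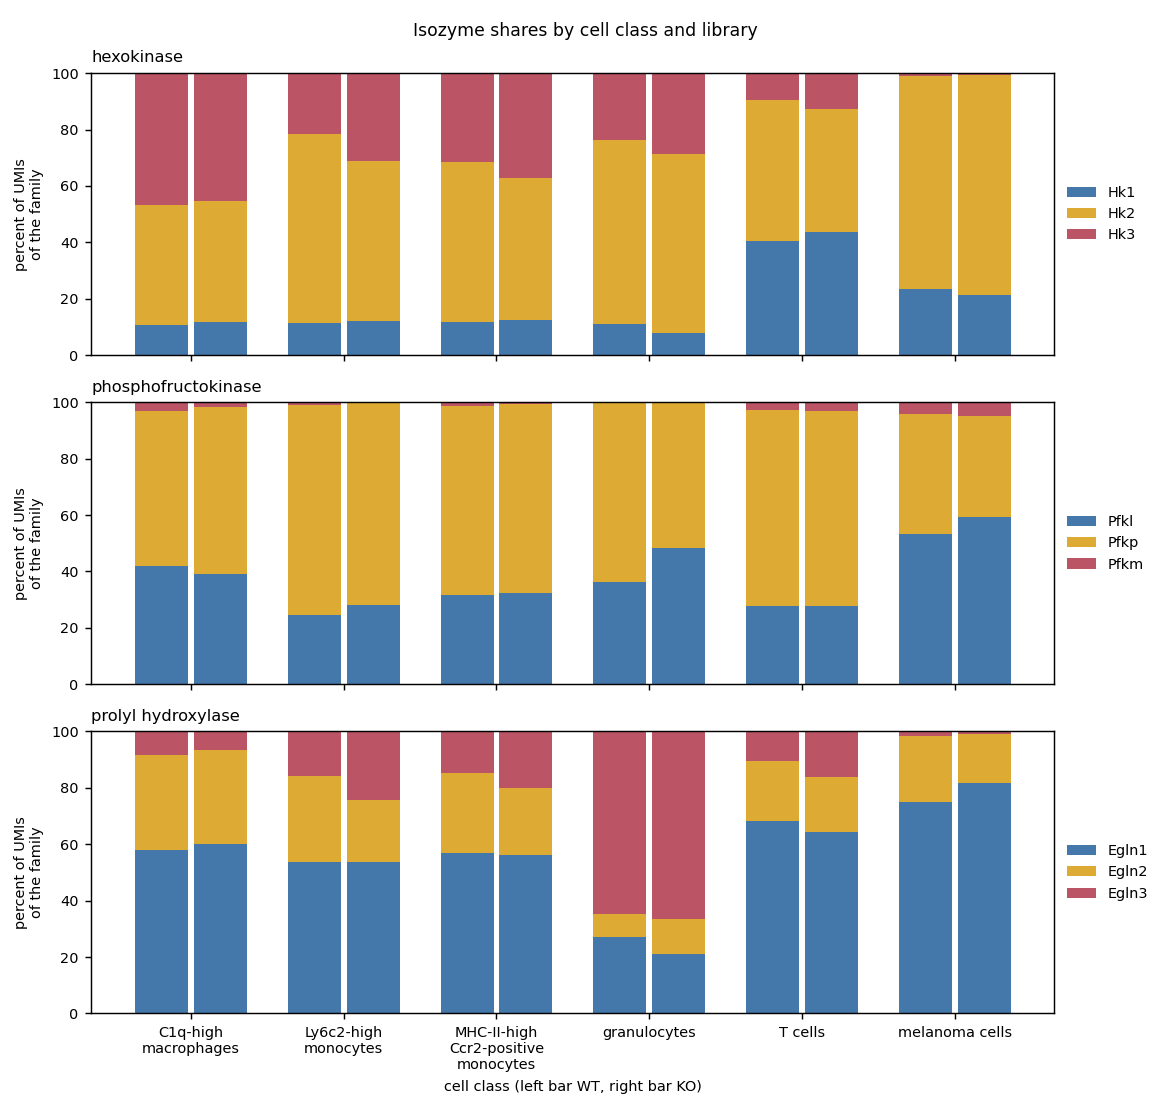
Share of each isozyme (colours) in the UMIs of the hexokinases, phosphofructokinases and prolyl hydroxylases, in percent, for 6 cell classes with the library labelled WT as the left bar and KO as the right. Hk3 is largest in C1q-high macrophages, Egln3 in granulocytes, and Pfkm is small in every class shown.

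Among the prolyl hydroxylases Egln3 held 8.19% (6.80 to 9.77) of the UMIs in C1q-high macrophages labelled WT and 64.6% (59.6 to 69.4) in granulocytes. Labelled KO the shares were 6.63% and 66.7%. Egln1 held most of the UMIs in C1q-high macrophages, at 58% and 60%. Among phosphofructokinases Pfkp held 74.7% and 71.3% in Ly6c2-high monocytes and 42.6% and 36% in melanoma cells, where Pfkl held 53.2% and 59.3%. Aldoc, the brain form of aldolase, held 21.6% (14.5 to 30.1) and 19.8% (12.5 to 28.9) of the aldolase UMIs in plasmacytoid dendritic cells, from 25 and 20 UMIs. Its share was 10.9% and 8.61% in conventional dendritic cells and 2.97% and 3.48% in melanoma cells.

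Most close relatives of the members that could share reads were scarce in phagocytes. In all phagocytes Eno1b was at 2.45 and 2.81 CPM and Ldhb, the heart form of lactate dehydrogenase, at 4.64 and 4.80 CPM, and Pgk2, Aldoart2 and Hkdc1 had 0 UMIs in both libraries. The third prolyl hydroxylase, Egln2, was less scarce, at 37.3 and 42.5 CPM in all phagocytes. In melanoma cells Ldhb was at 193 and 179 CPM.

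Other lists of the pathway were set beside the members. Between the libraries in Ly6c2-high monocytes, 3 of 7 other HIF targets, 1 of 4 other glycolysis genes and 1 of 6 pentose phosphate genes were higher, beside the 16.6% of all genes, and 1 of 4 genes of pyruvate to mitochondria and 1 pentose phosphate gene were lower, beside 9.39%. None of 4 HIF regulators was past the fold. Of 18 dissociation stress genes 1 was higher and 7 were lower there, read against the same shares.

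By the rule for named genes, the ends of those lists in all phagocytes were as follows. Mxi1, a HIF target that represses Myc, was at 49 and 68.1 CPM, a log2 ratio of 0.48 (0.37 to 0.58), and the chemokine receptor Cxcr4 at 53.7 and 64.8 CPM. Plod1, a collagen hydroxylase, was at 75.7 and 60.4 CPM, a ratio of -0.33, and P4hb differed by 0.03. Pgp, a phosphatase of the pathway, was at 60.1 and 78.2 CPM, Pfkfb3 differed by 0.19 and Ugp2 by 0.03. The mitochondrial pyruvate carriers Mpc1 and Mpc2 were at 136 and 118 CPM and at 124 and 114 CPM. Tkt and Taldo1 differed by 0.16 and 0.07, G6pdx by -0.06 and Pgls by -0.15. Cited2 differed by 0.20, and Elob, Rbx1 and Eloc by -0.06 to -0.10. Of the stress genes Socs3 and Ier2 differed by 0.38 and 0.37, Dusp1 by -0.02 and Fos by -0.17.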

How the data were processed

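Live CD45+ cells of B16 tumours were profiled with 10x Chromium 3′ v3 kits. The authors ran Cell Ranger 4.0.0 on mm10, per the file headers and the labels, and deposited 1 matrix of raw UMI counts for both libraries with a table that gives each barcode's library. Whether reads were subsampled when the libraries were joined is not given in the sources used here. That library column, deposited as other text, assigned cells to WT or KO. The libraries held 5895 and 8446 barcodes with 45963969 and 54052317 UMIs. Cells with at least 200 genes and at most 10% mitochondrial UMIs were kept. Scrublet (scanpy 1.11.5, Python 3.11.15) marked 1 cell per library, so the highest-scoring 0.8% per 1000 cells (256 and 532) were removed instead. Classes were per-cell gates on marker UMIs per 10000, with thresholds set after looking at the markers. Levels are summed counts. The background left out genes of mitochondrial DNA, ribosomal proteins and haemoglobin, and genes needed 50 CPM in either class or library. Poisson intervals of levels and conditional binomial intervals of ratios were exact, at 95%. A gene was counted as higher at 25% above the other library, as lower at 20% below it, or at 1.5-fold between classes. The functions were tested on simulated data.

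The members and lists were chosen with earlier results of these data known. Named genes were all members, Mettl3, relatives with shared sequence, and the 2 highest and 2 lowest of each list in all phagocytes. A cell class, the comparisons that need it and the genes most like the summed hypoxia genes are not reported here. Coordinates are RefSeq windows on GRCm38.p6.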

Additional observations from a re-analysis of the deposited data

Results flagged for a closer look

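For 11 of the 32 genes the library labelled KO was at least 25% higher in Ly6c2-high monocytes and at least 20% lower in Retnlg-positive granulocytes, with both intervals away from 0. By the same rule 51 of the 2085 genes tested in both classes were called (2.45%), and 26 of the 32 genes were among those tested. The difference between the cell classes was not tested, and each value comes from 1 library per genotype. In log2 KO over WT, monocytes first, the enzymes were Gpi1 at 0.39 and -0.43, Pfkp at 0.83 and -0.78, Aldoa at 0.42 and -0.38, Gapdh at 0.47 and -0.47, Pgk1 at 0.72 and -0.47, Pkm at 0.44 and -0.33, and Ldha at 0.61 and -0.37. The lactate carrier Slc16a3 was at 0.84 and -0.40. The HIF targets were Ero1l at 1.19 and -0.95, Mif at 0.87 and -0.36, and Ankrd37 at 0.77 and -1.04. With classes from clusters, each of the 11 fell short of the fold in granulocytes, with values from -0.28 to 0.018, and Pfkp, Pgk1 and Pkm changed sign.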

How the results depend on the processing

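No paired analysis was possible because each genotype had 1 library. With no replicates, every interval here covers counting error only, and mouse, tumour and library cannot be told apart from genotype. The cause was not tested for any shift below. In Ly6c2-high monocytes no alternative moved the number of members higher in the library labelled KO beyond 1.5 times.

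Clusters in place of gates gave 0 members higher labelled KO in C1q-high macrophages, beside 4.9% of all genes. They gave 5 higher in MHC-II-high monocytes (9.04% of all genes, median log2 0.19) and 2 lower in Retnlg-positive granulocytes (9.44%). They also gave 25 members lower in Retnlg-positive than Retnlg-negative granulocytes labelled WT (26%). Their Hk2 shares were 44.7% in C1q-high macrophages and 51.7% in Ly6c2-high monocytes labelled KO, and their Egln3 shares in C1q-high macrophages 12.2% labelled WT and 9.0% labelled KO. They reversed Hilpda (-0.28), Ndrg1 (-0.19) and Ankrd37 (-0.0048) in MHC-II-high monocytes and, in Retnlg-positive granulocytes, Hk2 (0.39), Pfkp (0.018), Pgk1 (0.018), Pkm (0.0048), Bnip3 (0.090), Vegfa (0.32) and Higd1a (0.11).

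Thinning to 1000 UMIs gave 3 members higher in C1q-high macrophages (13.3% of all genes). It gave 1 lower in Ly6c2-high monocytes than C1q-high macrophages labelled KO (17%). The median was 0.24 in melanoma cells, where Aldoc (-0.47) and Vegfa (-0.041) reversed. Hk2 shares became 46.1% labelled WT and 40.4% labelled KO in C1q-high macrophages and 59.8% in Ly6c2-high monocytes labelled KO, and the Egln3 share 4.76% in C1q-high macrophages labelled KO. Gate thresholds 1.5 times as high gave 0 higher in C1q-high macrophages, beside 5.01% of all genes. They gave 2 lower in Retnlg-positive than Retnlg-negative granulocytes labelled WT (26.6% of all genes), and turned Hk2 in Retnlg-positive granulocytes to 0.0023. The mean of per-cell CPM gave 1 lower in Ly6c2-high monocytes than C1q-high macrophages labelled KO, beside 16% of all genes. Equal weight for each phagocyte subset gave 5 higher in all phagocytes, beside 7.61% of all genes, and a median of 0.17.

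Chosen after seeing the data, cells of 2000 to 6000 UMIs gave 5 members higher in C1q-high macrophages (10.7% of all genes). In all phagocytes 18 were higher (10.2%), with a median of 0.37, and the median in Retnlg-positive granulocytes was -0.91 (54 and 15 cells). These cells gave 2 members lower in Ly6c2-high monocytes than C1q-high macrophages labelled KO (15.4% of all genes). They also gave 24 lower in Retnlg-positive than Retnlg-negative granulocytes labelled WT (52.5%). They reversed Pkm in Retnlg-positive granulocytes (0.24) and, in melanoma cells, of which 7 labelled WT and 5 labelled KO were left, Aldoa (-0.0054), Aldoc (-0.63), Hilpda (-0.31) and Ndrg1 (-2.04).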
